A study of Mus musculus with 16 samples.

Results

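H3K9me3, the trimethylation of lysine 9 of histone H3, was examined at the vomeronasal and bitter taste receptor genes of mouse small intestinal crypts, in wild type (WT) mice and in mice that lacked the chromatin remodeling factor Smarcad1 in the intestinal epithelium (KO). A peak was a member when the gene that the authors had assigned to it, overlapping or within 5 kb, carried a symbol beginning with Vmn1r, Vmn2r or Tas2r and a number. This rule used no measured value. It took 883 of 212313 H3K9me3 peaks, of which 217 belonged to 80 Vmn1r genes, 630 to 88 Vmn2r genes and 36 to 22 Tas2r genes. For H3K9me2, the dimethylated form, 274 of 47065 regions named such a gene.

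Vomeronasal receptors detect pheromones and other social odors in sensory neurons of the vomeronasal organ. The Vmn1r genes have their coding sequence in a single exon and are used by neurons with the G protein subunit Gnai2, whereas the Vmn2r genes have several exons, code for a long extracellular domain and are used by neurons with Gnao1. The Tas2r genes code for bitter taste receptors, which signal through Gnat3 in taste cells and are also found in some chemosensory cells of the gut. The genes of all 3 families lie in tandem clusters, and H3K9me3 and H3K9me2 are marks of repressed chromatin that are known for covering such clusters in tissues that do not use them.

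The WT mice were C57BL/6 and carried an intact Smarcad1 gene. The KO mice were C57BL/6 and Villin-Cre Smarcad1 fl/fl: Cre recombinase, driven by the Villin promoter, acts in the intestinal epithelium, so that any other cell in a whole crypt isolate kept the gene, and the floxed allele was made in C57BL/6J-derived ES cells. For either mark, 3 ChIP libraries per genotype were set against 1 input, which is sheared chromatin sequenced without the antibody step. The paper calls its H3K9me3 libraries biological replicates, but nothing in the labels said whether libraries of a group came from separate mice. The p-values therefore measure the spread between these libraries. The marker genes of the crypt could be read only as chromatin and not as expression, so the labelled tissue could not be checked through its transcripts.

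The depth was 7057614 to 11836943 reads in H3K9me3 peaks per ChIP library, lowest in KO replicate 1, and 18986927 to 39080740 reads in H3K9me2 regions. A receptor peak held a median of 21 to 37 H3K9me3 reads per library, and 29 (WT) and 26 (KO) in the inputs. H3K9me3 values are given as matched log2 reads, the log2 read count per peak after the authors had matched the distributions of the 6 libraries. Among the H3K9me2 libraries WT replicate 1 stood apart from its group, with a chi-square per degree of freedom of 3.71 and 3.65 against WT replicates 2 and 3, which gave 1.36 against each other. KO replicate 3 also stood apart, with 3.90 and 2.52 against KO replicates 1 and 2, against 1.37 between those.

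Of the 3 member peaks that differed between the genotypes, 2 are shown here by the 300 bases nearest their centre that lay outside annotated UTRs, in the plus strand of GRCm38 with every CG dinucleotide, the site of DNA methylation, in capitals. They were the peak at the 3′ end of Vmn2r10 (chr5:108989756-108990055) and the peak upstream of Vmn2r91 (chr17:18082051-18082350). The whole of the other called peak, at Vmn1r234, lay in an annotated UTR.
Vmn2r10: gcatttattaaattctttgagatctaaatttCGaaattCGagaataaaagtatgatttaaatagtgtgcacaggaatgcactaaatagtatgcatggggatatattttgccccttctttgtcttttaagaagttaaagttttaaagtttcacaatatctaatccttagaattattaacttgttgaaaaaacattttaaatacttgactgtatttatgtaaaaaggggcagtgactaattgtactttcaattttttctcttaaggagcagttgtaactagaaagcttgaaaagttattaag
Vmn2r91: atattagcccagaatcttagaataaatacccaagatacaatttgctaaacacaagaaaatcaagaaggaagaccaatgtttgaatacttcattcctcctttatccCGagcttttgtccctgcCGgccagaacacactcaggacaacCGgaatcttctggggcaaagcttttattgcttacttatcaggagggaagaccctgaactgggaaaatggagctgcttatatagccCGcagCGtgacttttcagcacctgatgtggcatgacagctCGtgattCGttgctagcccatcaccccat
The window of Vmn2r91 held 7 CG and that of Vmn2r10 held 2. Repeats, as the RefSeq genome masks them, made up 96.7% and 76.3% of these windows. Over the 300 bases at the centre of each peak, 74.7% of member windows and 77.5% of all windows held at least 1 CG. Over whole peaks, the median member peak was 45.8% masked repeat, against 35.2% over all peaks, with a GC content of 38.1% against 39.6%. The receptor peaks thus held more repeat than the typical peak, except at the 36 Tas2r peaks, with a median of 34.6%, against 48.3% for Vmn1r and 45.8% for Vmn2r.

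The GENCODE M21 start site of the assigned gene lay inside 29 of the 883 member peaks (3.28%), against 4.41% of the 77485 peaks with an assigned gene. For each family, the 250 bases upstream of the RefSeq start (GRCm38.p6) are given, 5′ to 3′ in the direction of the gene with CG in capitals, for the start-covering peak with the highest H3K9me3 over input in WT whose upstream bases were clear of annotated UTRs. These were Vmn1r125 (chr7:21271929-21272178, plus strand, 78 bases in its peak), Vmn2r19 (chr6:123308083-123308332, plus strand, all 250 bases in its peak) and Tas2r113 (chr6:132892761-132893010, plus strand, 60 bases in its peak).
Vmn1r125: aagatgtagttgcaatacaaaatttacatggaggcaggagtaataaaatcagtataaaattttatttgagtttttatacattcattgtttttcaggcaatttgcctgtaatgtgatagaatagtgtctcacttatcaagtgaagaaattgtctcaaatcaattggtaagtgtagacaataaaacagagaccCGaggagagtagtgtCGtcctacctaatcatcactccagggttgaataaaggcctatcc
Vmn2r19: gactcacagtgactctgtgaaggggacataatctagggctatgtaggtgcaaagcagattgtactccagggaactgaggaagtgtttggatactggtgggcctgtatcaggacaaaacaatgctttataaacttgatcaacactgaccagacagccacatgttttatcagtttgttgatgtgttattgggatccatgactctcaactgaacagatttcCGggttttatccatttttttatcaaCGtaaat
Tas2r113: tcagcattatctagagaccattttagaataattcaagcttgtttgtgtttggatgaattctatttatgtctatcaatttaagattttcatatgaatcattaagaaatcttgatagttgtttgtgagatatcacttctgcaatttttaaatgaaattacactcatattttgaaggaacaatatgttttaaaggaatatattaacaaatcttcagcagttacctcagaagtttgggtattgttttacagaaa
The upstream bases of Vmn1r125 and Vmn2r19 held 2 CG each, and those of Tas2r113 held 0. The letters CG were found in 69.4% of 353 receptor promoters of this length, with a median of 1 per promoter, and in 92.1% of all 32851 promoters, with a median of 6. Of the 190 genes with a member peak, 168 had RefSeq upstream bases.

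The families differed in how much of each gene lay under the marks. Of the 364 protein-coding receptor genes of the 3 families in GENCODE M21, 185 had a member peak. H3K9me3 peaks covered 31.7% of the bases of the 120 Vmn2r genes, 20.5% of those of the 209 Vmn1r genes and 6.09% of those of the 35 Tas2r genes, against 9.15% over all 21938 protein-coding genes. The Tas2r genes were short, with a median length of 960 bp against 17425 bp over all protein-coding genes. Of the 35, 3 overlapped an H3K9me3 peak (8.57%, against 27.2% of all protein-coding genes). Start sites lay in an H3K9me3 peak for 15 Vmn2r genes (12.5%), 20 Vmn1r genes (9.57%) and 1 Tas2r gene (2.86%), against 3.52% of all protein-coding genes. H3K9me2 followed another order, with 73.0% of Tas2r bases, 57.6% of Vmn2r bases and 54.8% of Vmn1r bases inside its regions, against 18.4% over all genes. The start sites of 26 Tas2r genes (74.3%), 63 Vmn2r genes (52.5%) and 85 Vmn1r genes (40.7%) lay in H3K9me2 regions, against 8.22% of all genes. Peaks were called on all libraries of a mark together, so these shares describe both genotypes at once.

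**Figure D1:**
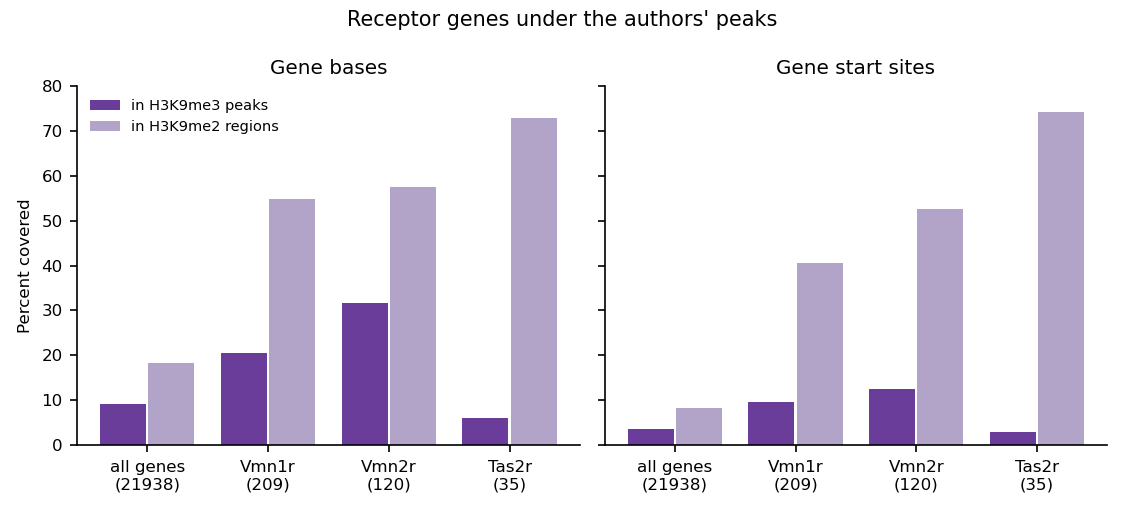
Percent of gene bases (left) and of gene start sites (right) inside H3K9me3 peaks (dark bars) and H3K9me2 regions (light bars), for all protein-coding genes and for each receptor family, with the number of genes in brackets. Vmn2r genes had the highest H3K9me3 cover of the 4 groups, 31.7% of bases. Tas2r genes had the lowest H3K9me3 and the highest H3K9me2 cover of bases, 6.09% and 73.0%, and 3 of the 35 overlapped an H3K9me3 peak.

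The peaks were spread unevenly over genes. A Vmn2r gene with peaks had a median of 7 and 28 of the 88 had at least 10, whereas a Vmn1r gene had a median of 2 and a Tas2r gene a median of 1. The gene with the most member peaks was Vmn2r97, a vomeronasal receptor on chromosome 17, with 19 peaks and 66.9% of its 43788 bp in H3K9me3 peaks. Vmn1r69 led its family with 13 peaks and Tas2r146-ps1, a taste receptor listed as a pseudogene, led the bitter receptors with 4. The widest member peak spanned 33000 bp over Vmn2r60 on chromosome 7, with matched log2 reads of 9.47, 9.56 and 9.65 in WT and 9.74, 9.53 and 9.73 in KO (log2 fold change 0.11, limma adjusted p = 0.661). The widest Vmn1r peak, 15600 bp at Vmn1r73, had a log2 fold change of 0.05 (limma adjusted p = 0.905). The median member peak was 1350 bp wide, as was the median of all peaks, and on the gene positions of the authors' annotation 519 of the 883 overlapped the assigned gene, 176 lay upstream and 188 downstream of it, once the deposited orientation had been turned round. In GENCODE M21, 637 overlapped it. H3K9me2 regions overlapped 661 member peaks (74.9%), against 68.2% of all peaks.

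For the question of whether receptor H3K9me3 depends on Smarcad1, each peak was compared between the genotypes in a fit over all peaks. In KO, 3 receptor peaks were lower and 0 were higher at a limma adjusted p under 0.05, which is 0.34% of the members, against 2.71% of all peaks (2.46% lower and 0.252% higher) and 4.39% of the peaks with an assigned gene. At an adjusted p under 0.01, 1 receptor peak was lower, against 1.58% of all peaks, and 0 were lower by at least 1 on the log2 scale, against 0.683%. Of the 519 receptor peaks that overlapped their gene 1 was lower, against 3.54% of all peaks that overlapped a gene. In whole crypts a different mixture of cells and a different level of the mark per cell cannot be told apart. All 3 lower peaks belonged to vomeronasal receptors, 2 to Vmn2r and 1 to Vmn1r genes, and none to Tas2r genes, where 1 peak was lower and 1 higher at an unadjusted p under 0.05. Over all members, 25 were lower and 23 higher at an unadjusted p under 0.05, against 6.75% and 4.07% of all peaks. All KO values lay below all WT values at 44 members, against 8.21% of all peaks, and above them at 51, against 7.3%. The median log2 fold change was 0.01 over the members and 0.03 over all peaks, with −0.00 for Vmn1r, 0.02 for Vmn2r and −0.04 for Tas2r, and single members ranged from −1.02 to 1.13. For 760 members (86.1%) the 95% confidence interval of the log2 fold change lay between −1 and 1, as for 85.8% of all peaks. Tests on recovered reads called 5 lower and 0 higher receptor peaks with edgeR and TMM (3.02% of all peaks were called), 3 lower and 0 higher with edgeR and total counts (2.89%) and 1 lower and 0 higher with DESeq2 (1.13%). Without a trend, limma called 0 (0.0485% of all peaks). With 1 library left out, lower receptor peaks numbered 1 without KO replicate 1 (2.11% of all peaks were called), KO replicate 3 (2.27%), WT replicate 1 (1.78%) or WT replicate 3 (1.85%), 2 without KO replicate 2 (2.46%) and 4 without WT replicate 2 (2.07%). These fits also gave 1 higher peak without KO replicate 1 (at Vmn2r96), WT replicate 1 (Vmn2r97) or WT replicate 2 (Vmn2r101).

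**Figure D2:**
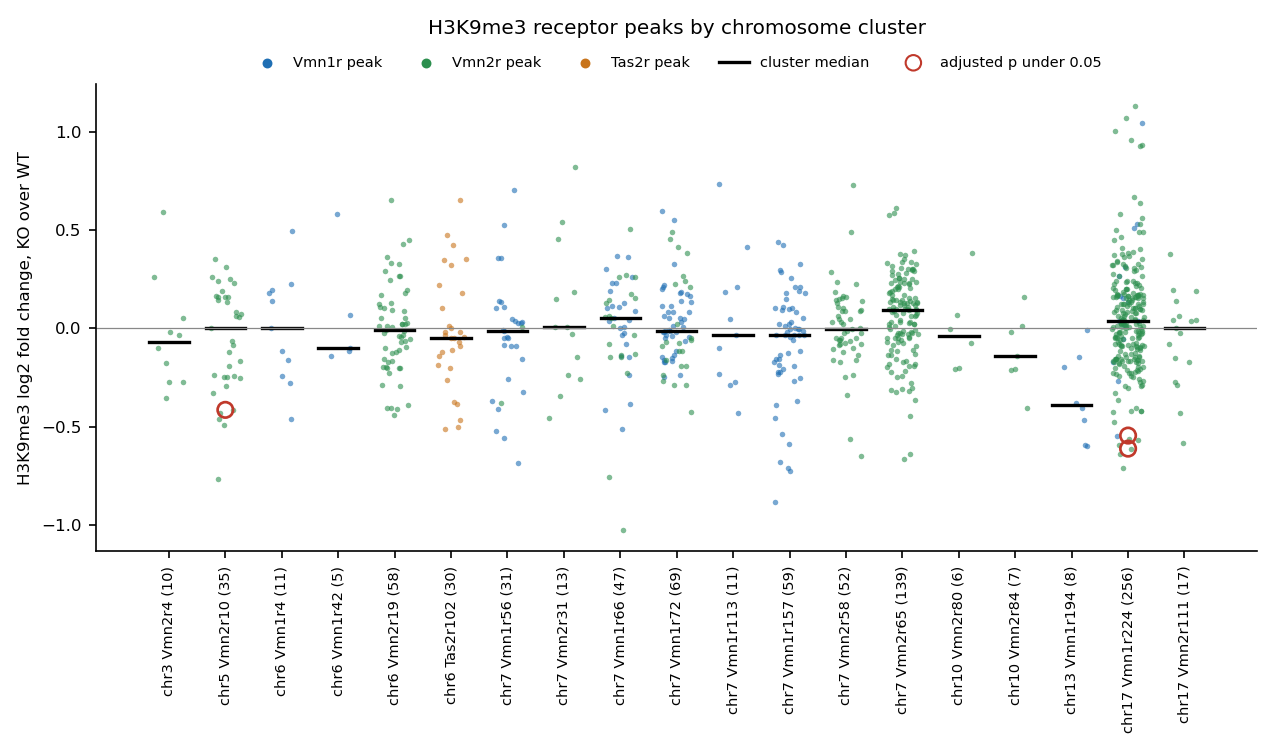
H3K9me3 log2 fold change (KO over WT) of every receptor peak in the 19 clusters with at least 5 peaks, each labelled by chromosome and first gene in name order with its number of peaks. Points are peaks colored by family, bars are cluster medians and red circles mark the 3 peaks past the threshold. Most medians lie near 0, and the Vmn1r cluster on chromosome 13 lies lowest with −0.39.

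The clearest single difference was at Vmn2r10, a V2R-type vomeronasal receptor on chromosome 5. The peak, 8550 bp from 108985951 to 108994500, covered the 3′ end of the gene. Its matched log2 reads were 7.98, 8.17 and 8.13 in WT and 7.57, 7.72 and 7.76 in KO. Every KO value was below every WT value, and the mean difference was −0.41 log2 units (SE 0.09, limma adjusted p = 0.00451). The inputs held 201 reads in WT and 164 in KO at this peak. The log2 ratio of its ChIP to its input reads, each relative to all reads in peaks, reached 0.26 ± 0.07 in WT against 0.06 ± 0.12 in KO (SD, n = 3, 1 input per genotype). It was the only receptor peak that edgeR, DESeq2 and each of the 6 fits without 1 library called as well, with adjusted p-values of 0.00493 to 0.0496 when a library was left out. Without a trend in limma its adjusted p was 0.399.

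The other lower peaks lay on chromosome 17 and were less stable. The peak at Vmn1r234, a V1R-type receptor, ran from 21231601 to 21233400, 1786 bp past the 3′ end of the gene as the authors annotated it and inside an exon of a longer GENCODE transcript. Its matched log2 reads were 6.53, 6.28 and 6.31 in WT and 5.83, 5.88 and 5.78 in KO, so the groups did not overlap (log2 fold change −0.54, SE 0.15, limma adjusted p = 0.0279). It passed the test without WT replicate 2 (adjusted p = 0.049) but not without KO replicate 1, 2 or 3 (0.0584, 0.0563 and 0.102), WT replicate 1 (0.222) or WT replicate 3 (0.076), nor with DESeq2 (0.274), while edgeR on recovered reads called it (0.016 with TMM and 0.0224 with total counts). The peak upstream of Vmn2r91, a V2R-type receptor, ran from 18081151 to 18083250 and was 91.0% masked repeat. Its matched log2 reads were 5.90, 5.78 and 6.05 in WT and 5.15, 5.61 and 5.14 in KO, again without overlap (log2 fold change −0.61, SE 0.18, limma adjusted p = 0.0488). Without KO replicate 2 the adjusted p was 0.0192. Without KO replicate 1 or 3 or WT replicate 1, 2 or 3 it was 0.181, 0.21, 0.146, 0.0731 and 0.274, and DESeq2 gave 0.468. With edgeR on recovered reads it was 0.05 with TMM, just inside the threshold, and 0.065 with total counts.

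The peaks outside the threshold that follow went in both directions, with limma adjusted p-values from 0.0632 to 0.522. The nearest was Vmn2r12 on chromosome 5, where a 14400 bp peak upstream of the gene gave 9.01, 9.08 and 9.10 matched log2 reads in WT and 8.86, 8.72 and 8.86 in KO (log2 fold change −0.25, limma adjusted p = 0.0632). Both edgeR fits on recovered reads called that peak (adjusted p = 0.0263 with TMM and 0.0358 with total counts). At Vmn2r52 on chromosome 7 a peak that overlapped the gene outside its exons gave 5.81, 5.57 and 5.75 in WT and 6.33, 6.15 and 6.18 in KO, with all KO values above WT (log2 fold change 0.51, limma adjusted p = 0.0676). Among the bitter receptors, the peak upstream of Tas2r138 gave 5.44, 5.64 and 5.31 in WT and 4.81, 5.02 and 4.77 in KO, without overlap (log2 fold change −0.59, SE 0.20, limma adjusted p = 0.136). In the opposite direction, a peak upstream of Tas2r123 gave 4.30, 4.45 and 3.88 in WT and 4.74, 5.14 and 4.72 in KO (log2 fold change 0.65, limma adjusted p = 0.252). The remaining peaks with the smallest p of their family and direction were at Vmn1r209 (−0.40), Vmn1r9 (0.50), Vmn1r62 (0.70), Vmn2r23 (0.65), Tas2r129 (−0.51) and a further peak at Tas2r123 (0.35), with limma adjusted p-values of 0.0943 to 0.522.

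**Figure D3:**
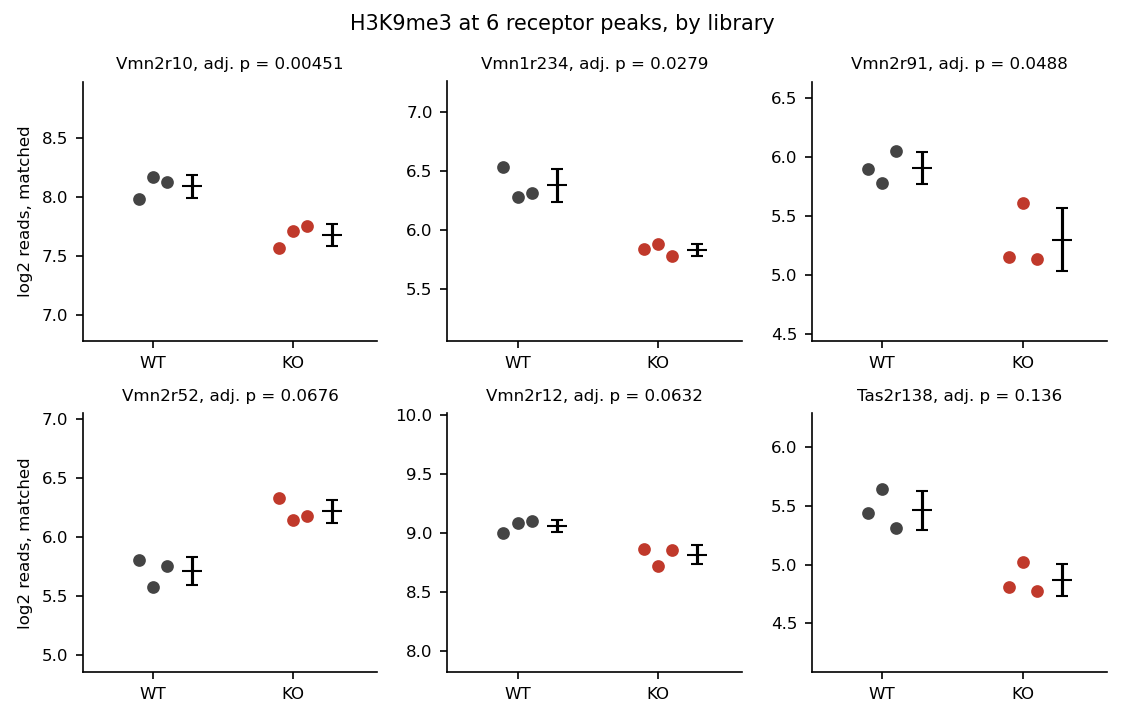
Matched log2 reads per library at the 3 receptor peaks past the threshold (top row) and at 3 peaks outside it (bottom row), with WT in grey and KO in red, and black bars for the mean and SD of 3 libraries. The y axes span the same 2.2 log2 units in each panel, and the groups do not overlap in any of the 6 panels.

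The members fell into 29 chromosome clusters, runs of member peaks less than 1 Mb apart, and 2 of these held the called peaks. The largest, on chromosome 17 from 17.7 to 21.2 Mb, held 256 peaks of 29 genes, 241 of them at Vmn2r genes. There 2 peaks were lower, and 8 were lower and 8 higher at an unadjusted p under 0.05, 3.13% each, against 6.75% and 4.07% of all peaks. The cluster on chromosome 5 from 109.0 to 109.5 Mb held 35 Vmn2r peaks of 8 genes, with 1 lower peak, and 6 were lower (17.1%) and 0 higher at an unadjusted p under 0.05, although its median log2 fold change was 0.00. The Vmn2r cluster on chromosome 7 from 84.9 to 87.0 Mb had a median of 0.10 over 139 peaks, and the main Tas2r cluster on chromosome 6 from 132.7 to 133.0 Mb had a median of −0.05 over 30 peaks of 16 genes. H3K9me3 peaks of any kind filled 79.0% of the Vmn2r cluster on chromosome 7 from 41.8 to 42.9 Mb and 47.8% of the chromosome 17 cluster, against 15.6% of the genome. They filled 24.2% of the main Tas2r cluster and 18.8% of the Tas2r cluster on chromosome 6 from 131.6 to 131.7 Mb.

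A Vmn1r cluster on chromosome 13, from 22.2 to 23.1 Mb, was singled out after its values were seen. It held 1 peak at each of 8 genes, and none passed the test (edgeR on recovered reads and DESeq2 also called 0). All 8 log2 fold changes were below 0, against 45.3% of all peaks, with a median of −0.39. An unadjusted p under 0.05 was reached by 3 of the 8, all lower, against 6.75% of all peaks. Without WT replicate 2 the peak of Vmn1r209 passed (limma adjusted p = 0.0358). At Vmn1r209 the matched log2 reads were 6.94, 6.55 and 6.88 in WT and 6.35, 6.37 and 6.43 in KO (log2 fold change −0.40, limma adjusted p = 0.105). At Vmn1r218 they were 5.34, 5.48 and 5.46 in WT and 4.48, 4.87 and 5.14 in KO (−0.60, limma adjusted p = 0.154), and at Vmn1r194 they were 5.31, 5.64 and 5.10 in WT and 4.81, 4.54 and 4.92 in KO (−0.59, limma adjusted p = 0.179). These peaks and that of Vmn1r210 had all KO values below all WT values, 4 of 8 against 8.21% of all peaks. As the median over the 8 peaks, log2 ChIP over input came to 0.40 ± 0.05 in WT and −0.09 ± 0.02 in KO (SD, n = 3), while the log2 ratio of the KO to the WT input had a median of 0.17 over all peaks in the span. Leaving out 1 library moved the median fold change to between −0.44 and −0.28, and the latter was reached without KO replicate 3. Of the 43 other H3K9me3 peaks in the span, 37 had a log2 fold change below 0 (45.3% of all peaks had) and 4 were lower in KO (9.30%, against 2.46% of all peaks), 1 of them at the pseudogene Vmn1r-ps125 and 3 with no gene within 5 kb.

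**Figure D4:**
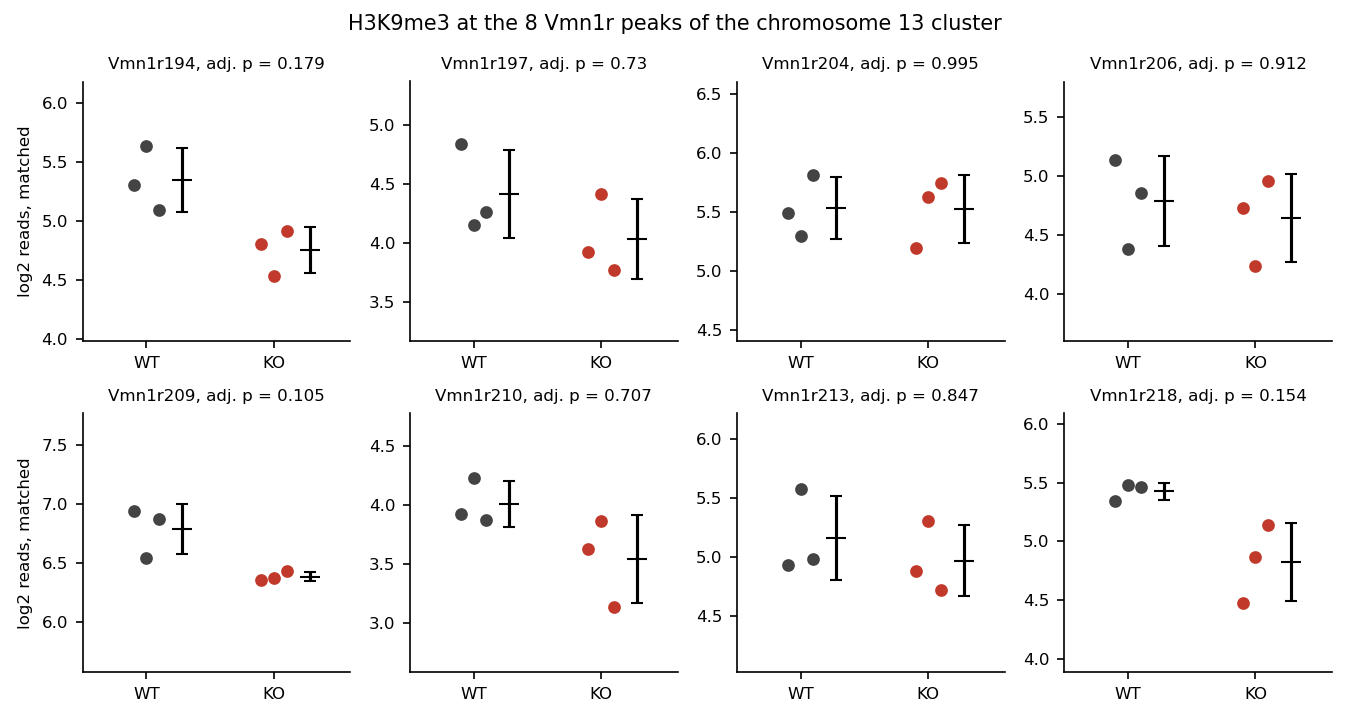
Matched log2 reads per library at the 8 Vmn1r peaks of the chromosome 13 cluster, with WT in grey, KO in red and black bars for the mean and SD of 3 libraries. The KO mean is below the WT mean in each panel, and the groups do not overlap at Vmn1r194, Vmn1r209, Vmn1r210 and Vmn1r218.

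H3K9me3 over input at the receptors was close to that of the average peak. With the reads of each library set relative to all its reads in peaks, 0 on the log2 scale marks the average peak and not background. Over the members the median came to −0.07 ± 0.04 in WT against 0.04 ± 0.03 in KO (SD, n = 3), and over all peaks to −0.06 ± 0.01 and −0.02 ± 0.02. Vmn1r peaks had 0.02 ± 0.03 in WT and 0.08 ± 0.05 in KO, Vmn2r peaks −0.09 ± 0.03 and 0.04 ± 0.03, and Tas2r peaks −0.15 ± 0.07 and −0.12 ± 0.10. The single inputs also differed at the members, where the log2 ratio of the KO to the WT input had a median of −0.08, against −0.00 at all peaks. With the mean of both inputs as reference the KO median of the members was −0.02.

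Among peaks with at least 20 reads in each input, the highest ratios in WT at Vmn1r genes were those of Vmn1r238 on chromosome 18 (1.32 ± 0.38 in WT and 0.74 ± 0.25 in KO), Vmn1r158 on chromosome 7 (0.95 ± 0.12 and 0.73 ± 0.05) and Vmn1r234 (0.87 ± 0.13 and 0.36 ± 0.05). These peaks were chosen on their WT values, which by itself makes a lower KO mean likely, and the KO mean was lower in each. The matched reads of the first 2 had log2 fold changes of −0.06 and −0.03, and at Vmn1r238 the inputs held 65 reads in WT and 89 in KO. At Vmn2r genes the highest were the peak of 10800 bp at Vmn2r104 (0.92 ± 0.33 and 0.57 ± 0.29), that of Vmn2r12 (0.80 ± 0.02 and 0.41 ± 0.05) and that of Vmn2r112 (0.70 ± 0.50 and −0.02 ± 0.40). At Vmn2r104 and Vmn2r112 the matched reads had log2 fold changes of 0.01 and −0.08, and the inputs held 208 and 186 reads in WT and 248 and 271 in KO. Among the bitter receptors they were a 4950 bp peak at Tas2r145-ps3 (0.44 ± 0.17 and 0.30 ± 0.15), Tas2r138 (0.25 ± 0.17 and −0.46 ± 0.12) and Tas2r146-ps1 (0.21 ± 0.17 and −0.51 ± 0.09), and at the last the matched reads had a log2 fold change of −0.14 (limma adjusted p = 0.908) and the inputs held 21 reads in WT and 31 in KO. The lowest, likewise chosen on WT values, were at Vmn2r101 (−0.85 ± 0.66 in WT), Vmn1r73 (−0.70 ± 0.23) and Tas2r122 (−0.64 ± 0.23). The KO values there were 0.17 ± 0.15, 0.24 ± 0.26 and −0.18 ± 0.05. At Vmn1r73 the inputs held 68 reads in WT and 35 in KO, and each is a single library. The start-covering peak of Vmn1r125, whose upstream bases are given above, had 1.08 ± 0.28 in WT and 1.62 ± 0.43 in KO on 4 and 2 input reads, and that of Tas2r113 had −0.45 ± 0.19 and −0.02 ± 0.18 on 35 and 19. The start-covering peak of Vmn2r19, whose upstream bases are also given above, had −0.157 in WT, below the average peak. Among the 2 start-covering peaks per family that ranked highest in WT were also those of Vmn1r158 (0.26 ± 0.10), Vmn2r22 (0.33 ± 0.07) and Tas2r145-ps3 (0.03 ± 0.53), beside that of Vmn2r104 above. The first of these had 10 to 18 reads in the inputs, as had Vmn2r22 and Tas2r145-ps3. The value of Tas2r145-ps3 was close to that of the average peak. Of the members, 20 had at least 2-fold H3K9me3 over input in WT (2.27%, against 3.21% of all peaks), 11 of them at Vmn1r genes, but 19 of the 20 had under 20 reads in an input and their median was 4 reads in the WT input.

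Clusters differed more from each other than the families did. The Vmn1r cluster on chromosome 7 from 20.8 to 21.3 Mb, with 11 peaks of 6 genes, had 0.91 ± 0.20 in WT and 0.53 ± 0.45 in KO, and the Vmn2r cluster on that chromosome from 7.38 to 8.47 Mb, with 13 peaks of 5 genes, had 0.72 ± 0.19 and 0.78 ± 0.11. Both were sparse in peaks, which filled 4.57% and 2.88% of their spans, and in input, with medians of 14.4 and 12.2 input reads per kb of peak against 20.6 over the members. Reads had been filtered on mapping quality, which removes reads from near-identical gene copies, and the part of this in the ratios was not tested. The Vmn1r cluster on chromosome 7 from 22.8 to 23.9 Mb, with 59 peaks of 15 genes and 18.9 input reads per kb, had 0.24 ± 0.03 in WT and 0.09 ± 0.04 in KO. The clusters with the most member peaks had −0.15 ± 0.07 in WT and 0.06 ± 0.03 in KO on chromosome 7 from 84.9 Mb, where the KO libraries lay above the WT libraries, and −0.12 ± 0.07 and 0.01 ± 0.05 on chromosome 17 from 17.7 Mb. In these clusters the log2 ratio of the KO to the WT input had a median of −0.12 and −0.11 at the receptor peaks.

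**Figure D5:**
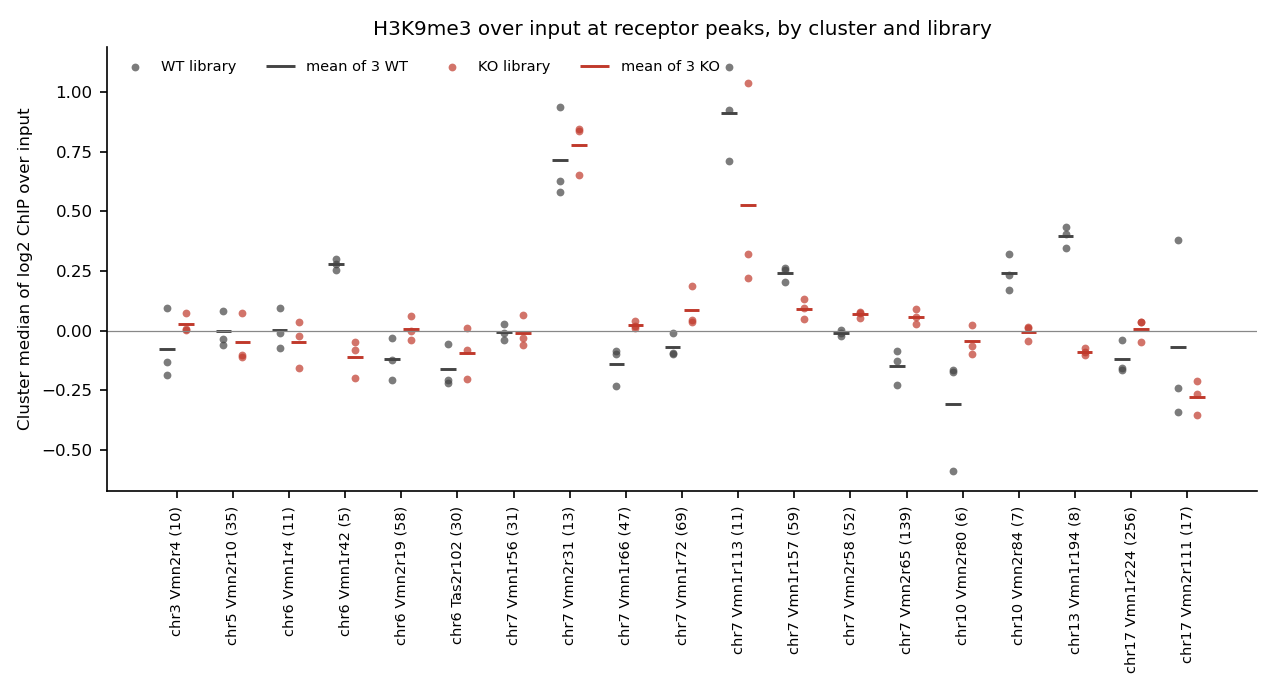
Median log2 H3K9me3 ChIP over input of the receptor peaks of each cluster with at least 5 peaks, 1 point per library (WT grey, KO red) and bars for the mean of 3 libraries, relative to all reads in peaks. The clusters led by Vmn1r113 and Vmn2r31 on chromosome 7 lie highest in WT, at 0.91 and 0.72, and WT and KO libraries lie apart at the chromosome 13 cluster, 0.40 against −0.09.

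H3K9me2 at the receptors was compared over regions, in which the authors had grouped neighboring peaks. Of the 274 receptor regions, 0 passed an edgeR adjusted p under 0.05, against 0.00212% of all regions, which is 1 region. At an unadjusted p under 0.05, 6 were lower and 5 higher, against 1.52% and 1.6% of all regions. DESeq2 called 1 (0.00637% of all regions, which is 3) and limma 0, as over all regions. The median log2 fold change was 0.02 over the receptor regions and −0.00 over all regions, and log2 ChIP over input had a median of 0.02 ± 0.03 in WT against 0.02 ± 0.01 in KO (SD, n = 3). The region with the smallest p, 40200 bp on chromosome 17 from 55607251 to 55647450, held Vmn2r118 and the telomere-binding gene Pot1b. Its CPM, relative to all reads in regions, were 55.8, 58.5 and 58.6 in WT and 46.4, 47.3 and 47.8 in KO, without overlap (log2 fold change −0.30, SE 0.05, edgeR adjusted p = 0.18). Its adjusted p was 0.0324 with DESeq2 and 0.0359 without WT replicate 1, the library that stood apart, and 0.501 without KO replicate 3, the other such library. On the other side came the regions of Vmn2r28 with Vmn1r60 (0.12), Vmn2r92 (0.13) and Vmn2r75 (0.14), with an edgeR adjusted p of 1.00 each.

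The other H3K9me2 regions with the smallest p for lower values lay in the chromosome 13 cluster. The region of Vmn1r210 and Vmn1r211 had 46.3, 44.3 and 44.2 CPM in WT and 38.5, 39.2 and 39.0 in KO (log2 fold change −0.22, SE 0.06, edgeR adjusted p = 1.00). That of Vmn1r208 had 36.2, 34.5 and 33.7 in WT and 30.8, 30.8 and 28.4 in KO (−0.23, SE 0.07, edgeR adjusted p = 1.00). In both regions the KO libraries lay below the WT libraries. Of the 17 receptor regions of this cluster, 15 had a log2 fold change below 0, against 50.7% of all regions. At an unadjusted p under 0.05, 5 were lower and 0 higher, against 1.52% and 1.6% of all regions, and the median over the 17 was −0.18. Leaving out 1 library moved that median to between −0.20 and −0.15. The median log2 ratio of the KO to the WT input over these 17 regions was 0.06.

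Other genes of the receptor pathways were counted from lists. Of 20 genes of vomeronasal signaling, 6 had 14 peaks between them, of which 1 was lower and 0 were higher, and over all peaks 2.46% were lower and 0.252% higher. It lay in Ano2, a calcium-activated chloride channel, with 5.26 ± 0.10 matched log2 reads in WT and 4.30 ± 0.37 in KO (SD, n = 3, log2 fold change −0.96, limma adjusted p = 0.0107). Of 13 genes of taste signaling, 4 had 6 peaks, of which 1 was lower. It lay in Pkd2l1, a marker gene of sour taste cells, with 5.96 ± 0.06 in WT and 5.34 ± 0.14 in KO (log2 fold change −0.62, limma adjusted p = 0.0308). A peak in Gnat3, the G protein subunit of bitter taste, had a log2 fold change of −0.44 (limma adjusted p = 0.146), and Gnao1 had 2 peaks with −0.41 and −0.45 (limma adjusted p = 0.471 and 0.433). Peaks above 0, none past the threshold, lay at Fpr-rs6 (0.23 and 0.36), Fpr-rs3 (0.12 and 0.31) and Pkd2l1 (0.44). The median log2 fold change was −0.20 over the 14 vomeronasal and −0.43 over the 6 taste peaks. Of the markers of other cells, 1 of 6 genes of tuft cells, the chemosensory cells of the gut, had a peak, as had 1 of 3 genes of blood and stroma. The tuft cell gene Dclk1 had 11 peaks of which none passed the test, and Pecam1, a gene of blood vessels, had 1 peak, which was lower. Among 8 epithelial genes, 3 had 5 peaks between them. Of these, 1 peak each of Lgr5 and Lyz1 was lower, and the other Lgr5 peaks did not pass the test. The peak over Vil1, whose promoter drives Cre in the KO mice, was higher by 6.69 on the log2 scale, with 296 reads in the WT input and 3288 in the KO input.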

How the data were processed

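H3K9me3 and H3K9me2 were profiled by ChIP-seq in whole crypt isolates, with 3 WT, 3 KO and 2 input libraries per mark. According to the methods of the study and the processing notes of the submitters, reads were trimmed (Trim Galore 0.4.4), mapped to GRCm38 (Bowtie2 2.3.2), filtered on mapping quality, and peaks were called with MACS on all libraries of a mark together. For H3K9me3 the authors deposited log2 counts of reads per peak and matched the distributions of the ChIP libraries, which removes any shift over all peaks, but left the inputs unmatched. For H3K9me2 they grouped MACS peaks into regions and deposited a signal, the mean count over the peaks of a region. Mean times number of peaks lay within 0.00114 of whole numbers, and these sums were tested. Shorter deposited tables with the authors' own edgeR calls, a p-value per peak beside the values in log2 or as read counts, were not used, nor were 8 columns of standard deviations.

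H3K9me3 was tested with limma 3.58.1 with a trend over all 212313 peaks, and H3K9me2 with the edgeR 4.0.16 quasi-likelihood test (TMM) over all 47065 regions, both two-sided with genotype as the only term and Benjamini-Hochberg adjustment over all features. Reads per H3K9me3 peak were recovered from the rank of each value among the distinct values of its library. Matching their distributions again gave the deposited values to within 0.002 for 99.7% of peaks, and higher counts were extrapolated. These reads gave depth, ChIP over input (1 read added, divided by all reads in peaks, against the input of that genotype) and the count tests used as alternatives (edgeR, and DESeq2 1.42.0). The deposited orientation named the side of the peak on which the gene lay, and was turned round: of 8182 peaks listed as upstream, 8052 lay 3′ of the gene in GENCODE M21, 2 lay 5′ and 128 overlapped it, and of 188 such receptor peaks 98 lay 3′, 0 lay 5′ and 90 overlapped it. Genes were matched to GENCODE M21 by identifier, and 16 receptor genes with 44 peaks by symbol. Functions were tested on simulated data. Python 3.11.15 and R 4.3.3 were used.

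The members, gene lists and tests were chosen with earlier results of these data known. Peaks named were those past the threshold, the 2 lower and 2 higher of smallest p per family, the 3 highest and the lowest over input with at least 20 reads in each input, the widest, the gene with most peaks, and the 2 start-covering peaks highest over input per family, and, chosen for its upstream bases alone, Vmn2r19. Named for H3K9me2 were the 3 lower and 3 higher regions of smallest p. The chromosome 13 cluster was named after its values were seen. Peaks near pseudogenes without a number after the family name, such as Vmn1r-ps125, were no members, while 5 genes that GENCODE M21 lists as pseudogenes, such as Tas2r146-ps1, met the rule. The sequence of 1 further peak is not reported here. Near-identical receptor copies lose reads to the mapping filter and their values are uncertain.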

Additional observations from a re-analysis of the deposited data

How the results depend on the processing

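The numbers of called receptor peaks moved with most settings. Lower peaks numbered 1 with DESeq2 on recovered reads, 5 with edgeR (TMM) and 0 with limma without a trend, where 1.13%, 3.02% and 0.0485% of all peaks were called. They numbered 1 at an adjusted p under 0.01 (1.58% of all peaks were lower), 0 at a log2 fold change of at least 1 (0.683%), 1 among the 519 peaks that overlapped their gene (3.54% of all such peaks) and 10 with pseudogenes added (2.46% of all peaks). With 1 library left out, 1 to 4 were lower and 0 to 1 higher, and 1.78% to 2.46% of all peaks were called. For H3K9me2, lower receptor regions numbered 1 with DESeq2, where 0.00637% of all regions were called. With 1 library left out they numbered 0 to 1, and 0% to 0.00425% of all regions were called. Replicate numbers were not taken as pairs: deviations from the group means correlated at −0.01, 0.01 and −0.01 in H3K9me3 and at 0.18, 0.01 and 0.09 in H3K9me2. With the replicate number as a block, 2 receptor peaks were lower and 0 higher in H3K9me3, where 2.71% of all peaks were called. In H3K9me2 that block gave 1 lower receptor region, while over all regions 15 were lower and 2 higher (0.0361%). In the H3K9me3 fit with the block the limma adjusted p was 0.0335 at Vmn1r234 and 0.0548 at Vmn2r91.

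The median log2 fold change moved by more than the spread of the libraries only without 1 of them. It ranged from −0.0044 to 0.0347 over the members, −0.0222 to 0.0277 for Vmn1r and −0.0649 to 0.0405 for Tas2r. The medians of log2 ChIP over input moved with the reference. With at least 20 reads in the input they were −0.133 in WT and −0.0459 in KO over the members, −0.0570 and −0.00218 for Vmn1r, −0.151 and −0.0490 for Vmn2r, and −0.344 and −0.230 for Tas2r. With the mean of both inputs they were −0.0176 in KO over the members, 0.0275 in KO for Vmn1r, and −0.0490 in WT and −0.0276 in KO for Vmn2r. From the deposited log2 values they were −0.00763, 0.0897 and −0.0337 in WT over the members, Vmn1r and Vmn2r. With 5 reads added they were −0.00360 in WT for Vmn1r and −0.00167 in KO for H3K9me2. The cause was not tested. Gaps of 500 kb or 2 Mb between clusters left 2 clusters with a called peak. The median standard error of a log2 fold change was 0.23 over the members and 0.22 over all peaks.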

Other observations

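Peaks near pseudogenes whose symbols carry ps in place of a number, such as Vmn1r-ps99, were not members. They numbered 403 at 116 genes, with a median log2 fold change of 0.01, and 7 were lower and 0 higher in KO (1.74%, against 2.71% of all peaks called in either direction). These calls come from the limma fit with a trend alone. The largest difference lay at Vmn1r-ps99 on chromosome 13 from 22167751 to 22175400, beside the Vmn1r cluster described above, and 2181 bp of this peak also lay in the protein-coding receptor gene Vmn1r191. It had 8.51 ± 0.01 matched log2 reads in WT and 7.42 ± 0.22 in KO (SD, n = 3, log2 fold change −1.10, SE 0.10, limma adjusted p = 2.2e-11). Over input its log2 ratio averaged 1.14 in WT against −0.24 in KO. Of the 7 peaks, 3 lay on chromosome 13, at Vmn1r-ps99, Vmn1r-ps125 (−0.55) and Vmn1r-ps97 (−0.84). The others lay at Vmn1r-ps25 on chromosome 6 (2 peaks, −0.46 and −0.60), Vmn2r-ps3 on chromosome 3 (−0.37) and Vmn1r-ps151 (−0.87).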
